A study of Rattus norvegicus with 16 samples.

Results

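Transcripts of the matrix metalloproteinases (Mmp), the ADAM and ADAMTS proteases, the ADAMTS-like proteins (Adamtsl) and the tissue inhibitors of metalloproteinases (Timp) were followed in isolated rat glomeruli. Members were taken by symbol, as every row of the deposited expression table whose name begins with Mmp, Timp, Adam, Adamts or Adamtsl and a digit. This gave 38 of 13222 listed genes, made up of 10 Mmp, 9 Adam, 12 Adamts, 3 Adamtsl and 4 Timp genes. The glomeruli came from 16 male Wistar rats of about 175 g, killed on day 11, with 4 rats in each of 4 groups. Replicate numbers were given here in the order of the sample records, only to name the rats, and equal numbers in different groups do not pair them. The control group (Ctl) is labelled healthy, and the labels do not say whether these rats received a vehicle. The PAN group received puromycin aminonucleoside, a toxin that injures podocytes, by vein and a sham vehicle by daily gavage. The PAN_Pio group received the same toxin and pioglitazone, an agonist of the nuclear receptor PPARγ, by daily gavage. The PAN_GQ-16 group received the same toxin and GQ-16, a partial PPARγ agonist, by daily gavage. Doses are not given in the labels, and no group received a drug without PAN. The question addressed is which of these proteases and inhibitors differ between healthy and PAN-injured glomeruli, and between injured glomeruli with and without each drug.

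Matrix metalloproteinases are zinc-dependent enzymes that are made as inactive precursors and cleave collagens, laminins and other proteins of the extracellular matrix. ADAM proteins are anchored in the cell membrane and release the outer parts of membrane proteins such as growth factor precursors, Notch receptors and cytokines. ADAMTS proteases are secreted and bind the matrix, where they trim procollagens or cut proteoglycans, while ADAMTS-like proteins share their outer domains without a protease domain. Timp proteins block the active site of most of these enzymes. In the glomerulus the mesangial matrix and the basement membrane between podocytes and endothelium are their substrates.

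Levels are CPM, that is, reads of a gene scaled to a common total over all listed genes in a library, so levels of different genes also depend on transcript length and are not ranked against each other here. Library totals ran from 13351137 to 21977663 reads. A count of 3 reads, taken as the detection floor, corresponded to 0.137 to 0.225 CPM and covers counting error only. Of the markers of a glomerular preparation, all 9 podocyte genes were listed, and no listed marker of any cell type was at 0 in every library. The podocyte score, the mean log2(CPM + 1) of those 9 genes, was 8.94, 6.36, 6.34 and 7.49 in the control rats, 8.29 to 8.89 in PAN rats, 7.08 to 9.03 with pioglitazone and 7.47 to 9.40 with GQ-16. Control replicates 2 and 3 therefore stood low. The share of mitochondrial reads was 13.7%, 39.0%, 32.1% and 18.9% in the control rats, each above every PAN rat at 5.83% to 10.6%, and it was 8.61% to 19.0% with pioglitazone and 6.63% to 30.9% with GQ-16. The part of this share in the differences from control was not tested. The library numbers in the sample titles were 25 or higher in 3 of 4 PAN rats, in 1 rat of each drug group and in 0 control rats, and the labels do not say what these numbers stand for. In whole glomeruli, a change in the number of cells of a type and a change in RNA per cell cannot be told apart.

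Promoter sequences are shown for 5 members to give the letters behind the comparison of start-site sequence. Adamts14 and Adamts12 had the largest changes with PAN, Mmp12 and Adam19 are the members with an AP-1 element, and Adamts1 carries a TATA box. Each runs 5′ to 3′ on the gene's own strand, from 250 bases before to 50 bases after the annotated start, in RefSeq assembly GRCr8. Capitals mark the AP-1 letters TGAGTCA or TGACTCA and the TATA box letters TATAAA, the only runs searched, on both strands for AP-1 (the pair are reverse complements) and on the gene's strand for TATAAA.
Adamts14: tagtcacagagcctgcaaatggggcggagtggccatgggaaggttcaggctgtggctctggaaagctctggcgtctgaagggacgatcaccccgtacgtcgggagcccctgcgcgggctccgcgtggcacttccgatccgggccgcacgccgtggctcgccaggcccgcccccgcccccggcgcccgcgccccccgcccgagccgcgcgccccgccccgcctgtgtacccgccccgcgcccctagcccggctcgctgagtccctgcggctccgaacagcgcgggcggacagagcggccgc
Adamts12: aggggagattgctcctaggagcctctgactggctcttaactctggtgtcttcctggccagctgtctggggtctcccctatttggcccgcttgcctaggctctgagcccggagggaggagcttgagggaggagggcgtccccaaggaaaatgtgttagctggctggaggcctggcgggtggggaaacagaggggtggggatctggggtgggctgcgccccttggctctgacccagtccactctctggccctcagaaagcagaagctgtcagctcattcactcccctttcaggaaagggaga
Mmp12: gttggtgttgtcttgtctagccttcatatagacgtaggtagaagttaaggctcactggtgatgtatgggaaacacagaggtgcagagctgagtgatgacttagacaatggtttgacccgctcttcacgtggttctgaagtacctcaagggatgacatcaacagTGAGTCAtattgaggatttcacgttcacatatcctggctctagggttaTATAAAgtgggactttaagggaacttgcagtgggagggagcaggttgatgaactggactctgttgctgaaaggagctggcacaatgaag
Adam19: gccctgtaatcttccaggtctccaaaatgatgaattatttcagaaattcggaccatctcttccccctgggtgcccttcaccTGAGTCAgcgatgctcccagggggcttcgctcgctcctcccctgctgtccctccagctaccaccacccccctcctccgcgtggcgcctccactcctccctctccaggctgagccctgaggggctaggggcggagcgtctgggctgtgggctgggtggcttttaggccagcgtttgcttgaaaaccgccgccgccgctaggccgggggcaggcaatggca
Adamts1: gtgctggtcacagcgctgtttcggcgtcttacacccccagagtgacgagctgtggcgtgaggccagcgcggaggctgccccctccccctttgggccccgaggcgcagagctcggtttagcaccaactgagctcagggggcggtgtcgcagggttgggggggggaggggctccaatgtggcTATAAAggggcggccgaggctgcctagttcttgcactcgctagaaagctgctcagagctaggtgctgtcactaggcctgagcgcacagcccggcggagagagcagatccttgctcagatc
The Adamts14 window lies at chr20:29762633-29762932 on the minus strand, the Adamts12 window at chr2:61759737-61760036 on the plus strand and the Mmp12 window at chr8:12866402-12866701 on the plus strand. The Adam19 window lies at chr10:30992511-30992810 on the plus strand and the Adamts1 window at chr11:38427335-38427634 on the minus strand. A promoter was given for 28 of the 38 members, 34 windows in all, of which 7 belong to Adamts13. The AP-1 letters were in 2 of the 34 windows, or 5.88%, beginning 87 bases before the start in Mmp12 and 169 bases before it in Adam19. Over all 33469 promoters of the RefSeq table the share was 4.63%, and over those of listed genes 3.46%. TATAAA was in 3 windows, or 8.82%, against 8.80% of all promoters and 4.25% of those of listed genes. It began 70 bases before the start in Adamts1, 39 in Mmp12 and 30 in Adamtsl2. The Adamts14 window was 76.0% G and C with 41 CG pairs, while the Adamts12 window was 61.3% G and C with 5 CG pairs, so these 2 members did not share a base composition. Over the 12 windows of members called in PAN against control the medians were 66.8% and 25 CG pairs. Over the 22 windows of other members, 7 of them of Adamts13, they were 53.8% and 9, and the difference was not tested. These matches are descriptions of the letters in the windows.

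PAN against control gave higher levels for many of the listed members. Of the 38, 19 were higher in PAN rats and 0 lower at an adjusted p under 0.05 (limma on log2(CPM + 1), Benjamini-Hochberg adjustment over 13222 genes), where 22.3% of all listed genes changed. Of those changed genes 97.7% were higher in PAN, so a rise was the common direction over the whole table. The members that rose included the procollagen protease Adamts14, the proteoglycan-cutting Adamts9 and Adamts1, the Timp2, Mmp14 and Mmp2 genes of the gelatinase activation system, and the membrane-anchored Adam12 and Adam33. By family, 5 of 10 Mmp, 3 of 9 Adam, 7 of 12 Adamts, 2 of 3 Adamtsl and 2 of 4 Timp genes rose. The median log2 change over the 38 members was 0.69, and over all genes it was 0.28. When libraries were scaled by the median ratio of genes instead of by their totals, the median of all genes moved to -0.003, that of the members to 0.42, and 12 members stayed higher, where 8.63% of all genes changed. Of the genes changed with that scaling 82.5% were higher in PAN. The 7 calls lost with that scaling were those of Adam9, Adamts1, Adamts5, Adamts8, Mmp19, Mmp23 and Mmp28. In 15 members every PAN rat was above every control rat and in 0 every PAN rat was below, where 23.3% of all genes separated in either direction. Because the table holds only genes that reached 2 CPM in at least 8 libraries, a gene near that level could be listed through the groups where it is high. Among the members, 9 had a control rat under 2 CPM, so these counts describe the listed members only. The called members among them were Adam12, Adamts7, Adamts12, Adamts14, Adamtsl5 and Mmp28.

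**Figure D1:**
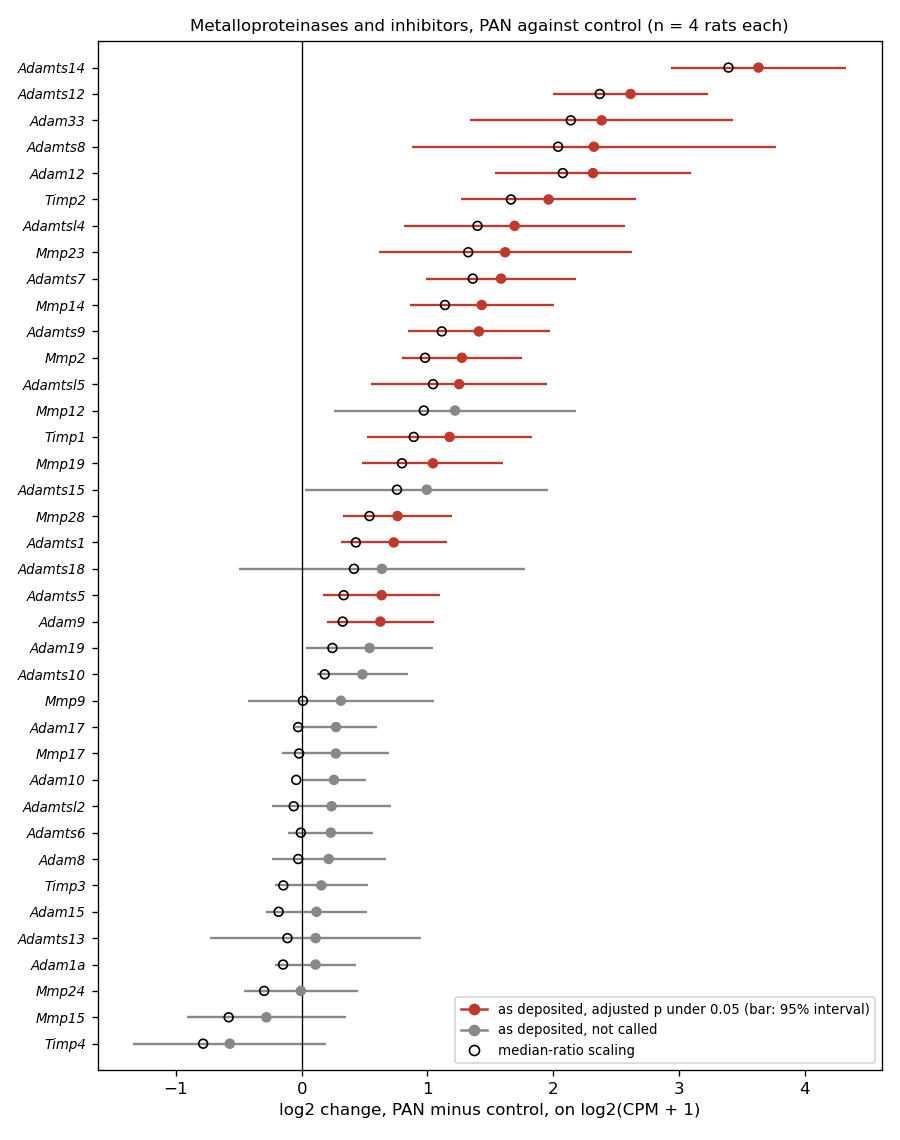
Change of each of the 38 members in PAN against control on log2(CPM + 1), with filled points and 95% intervals before adjustment for the deposited scaling and open circles for median-ratio scaling. The 19 members in red passed an adjusted p of 0.05, led by Adamts14 at 3.63 and Adamts12 at 2.62, and the open circles lie to the left of the filled ones throughout.

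Adamts14, which removes the amino-terminal propeptide of fibrillar procollagens, had the largest change. Its levels were 2.07, 1.33, 2.12 and 1.93 CPM in the 4 control rats and 59.0, 30.2, 29.9 and 25.7 CPM in the 4 PAN rats. The lowest PAN rat stood far above the highest control rat. The group means were 1.86 ± 0.364 and 36.2 ± 15.3 CPM (SD, n = 4), a ratio of 19.5, and the log2 change was 3.63 (SE 0.33, adjusted p = 4.32e-05). Adamts12, a protease able to cut cartilage oligomeric matrix protein, had 4.99, 3.03, 1.3 and 2.20 CPM in control and 26.9, 24.2, 15.8 and 20.3 CPM in PAN rats. Its groups did not overlap, and its log2 change was 2.62 (SE 0.29, adjusted p = 0.000151). Both genes had at least 1 control rat under 2 CPM and could be listed through the injured groups, where they were high. These 2 genes passed the test in all 20 settings tried, among them the fit limited to libraries numbered 15 or lower, which leaves a single PAN rat. With the library number as a covariate the changes were 3.20 and 2.70, and with the podocyte score as a covariate 3.26 and 2.32. With median-ratio scaling they were 3.39 and 2.37. Adamts14, Adamts12 and the other members at a few CPM change by more than these values show, since adding 1 CPM before taking logs draws low levels together.

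Adamts7, the closest relative of Adamts12, was low in control at 3.28, 1.68, 1.36 and 1.98 CPM and reached 15.4, 10.7, 4.70 and 4.98 CPM in PAN rats. The groups did not overlap, with PAN replicates 1 and 2 above the other two, and the log2 change was 1.59 (SE 0.28, adjusted p = 0.00208). Adamts9, a protease that cuts versican, had 30.1, 23.4, 22.6 and 25.4 CPM in control and 103, 66.0, 61.8 and 52.3 CPM in PAN rats, a log2 change of 1.41 (SE 0.27, adjusted p = 0.00294) without overlap. Adamts1, which cuts versican and aggrecan and restrains vessel growth, had 219, 149, 176 and 199 CPM in control and 322, 339, 286 and 282 CPM in PAN rats. Its groups did not overlap either, and the rise of 0.73 (SE 0.20, adjusted p = 0.0202) was 0.43 and no longer past the threshold with median-ratio scaling. The call for Adamts1 was also lost without control replicate 2 (0.63) or 3 (0.71) and without PAN replicate 1 (0.71) or 2 (0.68).

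Adamts8, like Adamts1 a protease that restrains vessel growth, varied widely among rats of a group. It had 59.1, 7.44, 10.5 and 22.6 CPM in control and 204, 57.6, 90.8 and 77.1 CPM in PAN rats, so the highest control rat, replicate 1, was above the lowest PAN rat. The log2 change of 2.32 (SE 0.68, adjusted p = 0.0277) fell to 0.77 with the podocyte score as a covariate and then missed the threshold. Without control replicate 2 the change was 1.93, without control replicate 3 2.08, without PAN replicate 1 1.96 and without PAN replicate 3 2.35, and the call was lost each time. Adamts5, an aggrecan-cutting protease, rose by 0.64 from 187 ± 40.8 to 289 ± 52.9 CPM (adjusted p = 0.0491), with overlapping groups, and passed in 5 of the 20 settings. The remaining 5 Adamts genes did not pass. Their log2 changes ran from 0.11 for Adamts13, which cuts von Willebrand factor, to 0.99 for Adamts15, with Adamts10, whose product binds fibrillin, at 0.48 (adjusted p = 0.0521). Adamts6 was at 5.69, 3.44, 3.45 and 3.26 CPM in the PAN rats and 2.98 to 3.26 CPM in control, and Adamts18 was highest of all 16 libraries in control replicate 1, at 13.6 CPM.

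Genes of the gelatinase activation system rose in PAN. Mmp2 is gelatinase A, which cuts denatured collagen and basement membrane collagen, and its precursor is activated at the cell surface by the membrane-type enzyme Mmp14 with Timp2 as the bridge. Mmp2 had 25.3, 20.4, 16 and 23.6 CPM in control and 78.0, 58.2, 50.7 and 32.1 CPM in PAN rats, without overlap. The log2 change was 1.27 (SE 0.23, adjusted p = 0.00205), and PAN replicate 4, the PAN rat with a library number under 25, was the lowest of its group. Mmp14 had 31.3, 19.3, 15.5 and 21.1 CPM in control and 106, 64.6, 41.9 and 40.9 CPM in PAN rats, a log2 change of 1.43 (SE 0.27, adjusted p = 0.00296), again without overlap. Timp2 had 127, 53.9, 41.6 and 81.4 CPM in control and 406, 292, 214 and 222 CPM in PAN rats. Every PAN rat was above every control rat in Timp2, and the log2 change was 1.96 (SE 0.33, adjusted p = 0.00141). With the library number as a covariate the changes of Mmp2, Mmp14 and Timp2 were 1.07, 1.35 and 1.56, and with the podocyte score 1.15, 1.16 and 1.28, all past the threshold. With the library number and median-ratio scaling together they were 0.87, 1.15 and 1.35, and only Timp2 of the 3 passed. In libraries numbered 15 or lower, with PAN replicate 4 as the only PAN rat, they were 0.59, 0.92 and 1.66, and none passed. Each of the 8 fits without a control or PAN rat kept the calls of these 3 genes.

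The ratio of Timp2 to Mmp2 reads within a library does not depend on how libraries are scaled, although its absolute size depends on the lengths of both transcripts. It was 5.02, 2.65, 2.61 and 3.45 in the control rats and 5.20, 5.01, 4.22 and 6.92 in the PAN rats, so control replicate 1 lay within the PAN range and the other controls lay below it. With pioglitazone it was 3.57, 4.38, 5.32 and 5.59 and with GQ-16 6.09, 3.65, 6.98 and 10.5. The ratio of Mmp2 to Mmp14 had a mean of 1.0 in control rats and 0.908 in PAN rats, and of 0.816 with GQ-16 and 0.977 with pioglitazone, with overlapping ranges. The ratios were chosen after the levels had been seen and were not tested.

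**Figure D2:**
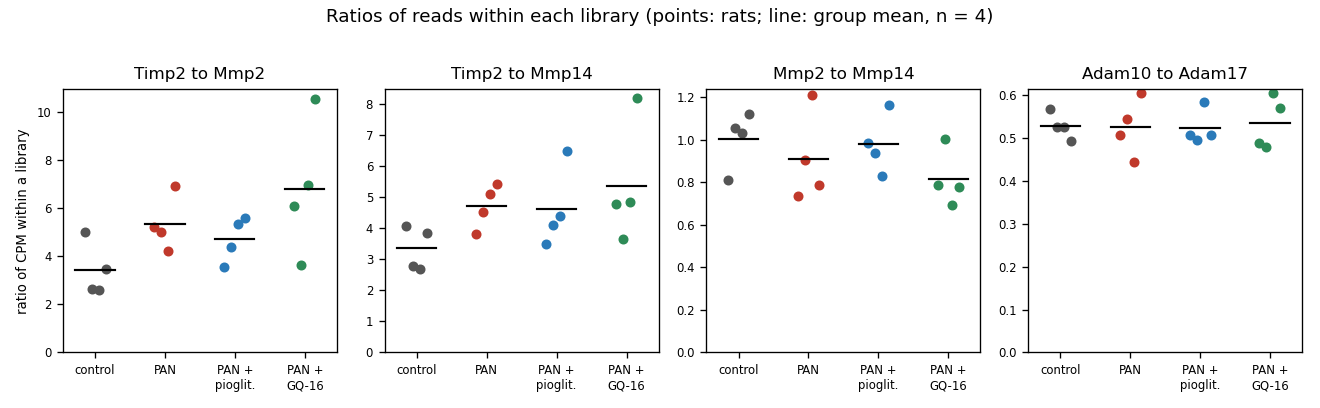
Ratio of the CPM of 2 genes within each library, with a point for each rat and a line at the mean of 4 rats, from 0 on each vertical axis. Timp2 to Mmp2 was lowest in control replicates 2 and 3 and highest in GQ-16 replicate 4 at 10.5, while Adam10 to Adam17 stayed between 0.445 and 0.605 in all 16 libraries.

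Mmp9, gelatinase B, did not pass. It had 311, 232, 116 and 254 CPM in control and 299, 434, 281 and 139 CPM in PAN rats, with wide overlap and both a low control rat, replicate 3, and a low PAN rat, replicate 4. The log2 change was 0.31 with a 95% interval of -0.43 to 1.05 (adjusted p = 0.495), 0.01 with median-ratio scaling and -0.17 with the library number as a covariate. Mmp9 levels with GQ-16 were 509.8, 392.1, 475 and 369 CPM, each above every control rat. The log2 change of Mmp9 in GQ-16 against control was 1.01 (SE 0.35), which missed the threshold (adjusted p = 0.126). That comparison of Mmp9 was chosen after its values had been seen.

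Among the other Mmp genes, Mmp23, an Mmp held in the membrane by its amino-terminal end, Mmp19, a widely expressed member, and Mmp28, epilysin, also rose. Mmp23 had 93.6, 16.6, 20.8 and 52.7 CPM in control and 144, 116, 124 and 80.9 CPM in PAN rats, where control replicate 1 was above PAN replicate 4. Its log2 change was 1.62 (SE 0.47, adjusted p = 0.0274), 1.32 with median-ratio scaling and 0.49 with the podocyte score, and neither of the latter passed. Without control replicate 2 or 3 the change was 1.26 or 1.36, and without PAN replicate 1, 2 or 3 it was 1.5, 1.61 or 1.58, with the call lost in each. Mmp19 went from 3.28 ± 0.787 to 8.53 ± 4.94 CPM (log2 change 1.04, adjusted p = 0.0151) and Mmp28 from 1.92 ± 0.582 to 4.02 ± 1.52 CPM (log2 change 0.76, adjusted p = 0.0201), and neither gene's groups overlapped. Mmp19 passed in 9 and Mmp28 in 10 of the 20 settings, of which the minimum mean of 10 CPM did not test them. Mmp12, macrophage elastase, did not pass (log2 change 1.22, adjusted p = 0.0615). Its levels were 33.2, 7.38, 4.02 and 7.75 CPM in the PAN rats and 2.69 to 4.77 CPM in control, so PAN replicate 1 alone was far above the rest. The membrane-type enzymes Mmp15, Mmp17 and Mmp24 had log2 changes of -0.28, 0.27 and -0.01 and did not pass.

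Of the inhibitors other than Timp2, Timp1 rose and the others did not pass. Timp1, an inhibitor often raised in scarring tissue, had 24.6, 9.49, 10.0 and 15.9 CPM in control and 68.6, 25.6, 28.3 and 23.1 CPM in PAN rats. PAN replicate 1 stood far above the others, and control replicate 1 lay within the PAN range. The log2 change was 1.18 (SE 0.31, adjusted p = 0.0183). Without PAN replicate 1 it was 0.83, and without control replicate 2 or 3 it was 1.01 or 1.03, and the call was lost in each case. With the podocyte score as a covariate it was 0.67 and with the library number 0.82, and neither passed. Timp1 passed in 10 of the 20 settings. Timp3, the matrix-bound inhibitor that also blocks Adam17, had 305, 234, 264 and 282 CPM in control and 339, 249.8, 259.6 and 372 CPM in PAN rats. Its groups overlapped, and the log2 change was 0.16 with a 95% interval of -0.22 to 0.53 (adjusted p = 0.497), or -0.15 with median-ratio scaling. Timp4 had 4.80, 3.43, 4.46 and 3.88 CPM in control and 0.344, 3.20, 2.93 and 5.31 CPM in PAN rats, with the lowest PAN rat at 6 reads, and its change of -0.57 did not pass (adjusted p = 0.232).

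Timp1, Timp3 and Timp4 lie within introns of synapsin genes, on the other strand. In the RefSeq table the spans of 10 members overlap a gene with a symbol of its own, and for 3 of them that gene is also listed, Syn1 over Timp1, Syn3 over Timp3 and Cacfd1 over Adamts13. Whether reads were counted by strand is not given in the sources used here. Syn1 was at 0.676 to 4.00 CPM and Syn3 at 3.15 to 9.19 CPM over the control and PAN rats, on the CPM scale and not per length. Cacfd1 was at 9.39 to 24.1 CPM in the same rats, where Adamts13 was at 0.883 to 10.5 CPM, so reads of the neighbour could bear on Adamts13 if strands were not kept apart.

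The main shedding enzymes of the cell surface did not pass the test. Adam10 releases Notch receptors and cadherins, and Adam17 releases tumour necrosis factor and ligands of the epidermal growth factor receptor. Adam10 had 81.3, 82.5, 82.6 and 96.5 CPM in control and 109, 107, 103 and 91.4 CPM in PAN rats, with a single overlap between control replicate 4 and PAN replicate 4. The log2 change was 0.26 with a 95% interval of 0.00 to 0.51 (adjusted p = 0.117), and -0.04 with median-ratio scaling. Adam17 had 143, 157, 157 and 196 CPM in control and 215, 196, 232 and 151 CPM in PAN rats, a log2 change of 0.27 with a 95% interval of -0.05 to 0.60 (adjusted p = 0.184), and -0.03 with median-ratio scaling. The direction of both genes thus turned with the scaling, and neither passed under any of the 20 settings.

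Adam12 and Adam33, membrane-anchored ADAMs typical of mesenchymal cells, rose with PAN, as did Adam9, which is more widely expressed. Adam12 had 2.83, 2.33, 1.49 and 2.20 CPM in control and 16, 23.8, 10.6 and 11.8 CPM in PAN rats, so the groups lay far apart. The log2 change was 2.32 (SE 0.37, adjusted p = 0.00113), and 2.68 and 2.36 with the library number and the podocyte score as covariates. Adam33 had 10.8, 2.03, 2.18 and 6.17 CPM in control and 45.3, 21.8, 30.5 and 17.4 CPM in PAN rats, without overlap, although control replicate 1 stood well above control replicates 2 and 3. Its log2 change was 2.39 (SE 0.49, adjusted p = 0.00516), 1.62 and no longer past the threshold with the library number as a covariate, and 1.34 with the podocyte score. Adam9 rose by 0.63 from 77.4 ± 20.2 to 118 ± 14.5 CPM (adjusted p = 0.0373), with overlapping groups, and passed in 7 of 20 settings. Adam8, a leukocyte ADAM, Adam15, Adam19 and Adam1a, which the table annotates as a pseudogene, had log2 changes between 0.11 and 0.54 and did not pass.

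Among the ADAMTS-like proteins, Adamtsl4, which binds fibrillin microfibrils, had 71.0, 24.6, 22.5 and 44.9 CPM in control and 206, 106, 103 and 93.2 CPM in PAN rats, without overlap. The log2 change was 1.69 (SE 0.41, adjusted p = 0.0129), and 0.74 with the podocyte score as a covariate, still past the threshold. With the library number as a covariate it was 1.17 and did not pass. Without control replicate 2 it was 1.51 and without control replicate 3 1.47, and both ended the call. Adamtsl5 rose from 1.84 ± 0.929 to 5.95 ± 3.06 CPM (log2 change 1.25, adjusted p = 0.0184), while Adamtsl2, which binds fibrillin and latent TGFβ, was at 139 ± 40.5 and 159.8 ± 24.9 CPM and did not pass (log2 change 0.24). The change of Adamtsl5 was 0.75 with the podocyte score and 0.79 with the library number, and neither passed. Its call was also lost without control replicate 2 or 3 and without PAN replicate 1, and it passed in 10 of the 20 settings.

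The 19 calls differed in how they held under other settings. Adamts12 and Adamts14 passed in 20 of 20 settings, Timp2 in 19, Adam12, Adamts9, Mmp14 and Mmp2 in 18, Adam33 and Adamts7 in 17 and Adamtsl4 in 15. The other 9 members passed in 5 to 10 settings. Adam12, Adamts7, Adamtsl5, Mmp19 and Mmp28 were not tested under the minimum mean of 10 CPM, and that setting counts as not passed here. With the library number of 25 or higher as a covariate 8 members passed, namely Adam12, Adamts7, Adamts9, Adamts12, Adamts14, Mmp2, Mmp14 and Timp2, where 2.97% of all genes passed, and with the podocyte score 11 passed, where 5.70% did. Single rats mattered too. Without control replicate 2 there were 9 calls, without control replicate 3 there were 10 and without PAN replicate 1 there were 11, all of them among the 19, and 6.50%, 6.34% and 7.93% of all genes passed in these fits against 22.3% as reported.

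**Figure D3:**
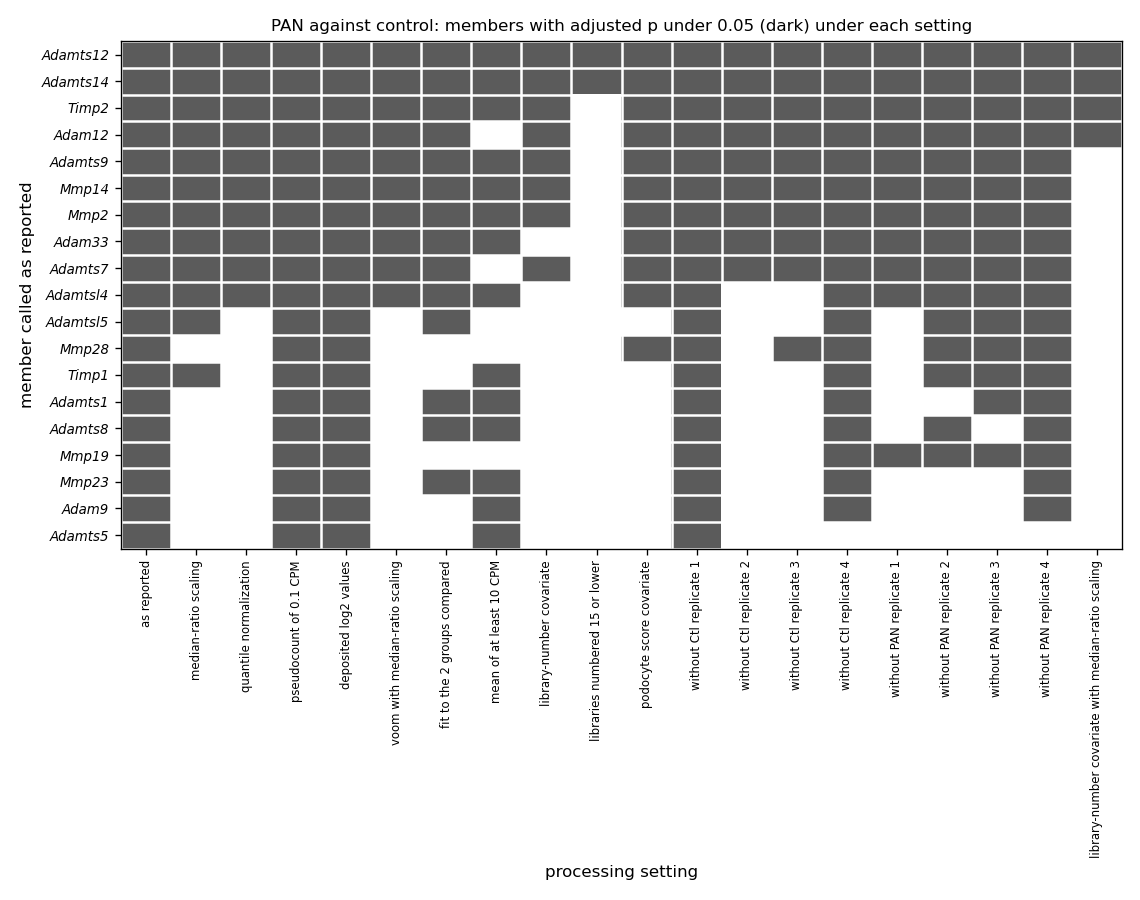
Each of the 19 members called in PAN against control, in rows, under the reported settings and 19 alternatives, in columns, where a dark cell marks an adjusted p under 0.05. Adamts12 and Adamts14 are dark throughout, the upper 10 rows pass in at least 15 settings, and a blank cell under the minimum mean of 10 CPM can also be a gene that was not tested.

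Markers of several cell types moved with these calls, where 22.3% of all genes were called (8.63% with median-ratio scaling). Of the mesangial and smooth muscle markers, 6 of 6 listed genes were higher in PAN than in control (5 with median-ratio scaling), with a median log2 change of 2.21 and summed levels of 1499.9 to 2612 CPM in PAN against 263 to 727 CPM in control. The 6 genes were Pdgfrb, Itga8, Des, Tagln, Acta2 and Myh11. Macrophage markers were higher in 9 of 10 listed genes (1 with median-ratio scaling), with sums of 366 to 1118 CPM against 215 to 351 CPM. Podocyte markers were higher in 3 of 9 (1 with median-ratio scaling), with sums of 6627 to 9832 CPM against 2124 to 8446 CPM. Fibroblast markers were higher in 1 of 4 listed genes, Col1a1, which is also among the matrix substrates given further on, Dcn and Lum not being listed, with sums of 179 to 1885 CPM against 74.6 to 159.8 CPM. Endothelial markers were higher in 1 of 7, distal nephron markers lower in 3 of 7, the single listed striated muscle marker, Myom2, was higher, and parietal, neutrophil, lymphocyte and proximal tubule markers passed in neither direction, except that 2 of 4 lymphocyte markers were lower with median-ratio scaling. The part of these cell types in the members' changes was not tested. PAN replicate 1 was the highest PAN rat in 26 of 38 members and in 45.8% of all genes, and control replicate 1 the highest control rat in 25 of 38 members and in 57.1% of all genes.

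In rats given PAN and pioglitazone, 9 of 38 members were higher than in control and 0 lower, where 4.98% of all genes changed. Of all genes changed in this comparison 94.2% were higher. With median-ratio scaling 5 passed, where 2.85% of all genes changed, and the median of all genes moved from 0.21 to 0.01. The 9 genes were Adamts12, Adamts14, Adamts9, Adam12, Timp2, Mmp2, Adamts1, Mmp14 and Mmp19, and the first 5 of these passed with both scalings. Adamts14 had 7.67, 12.5, 8.75 and 16 CPM, between the ranges of the control and PAN rats, a log2 change of 2.05 against control (SE 0.33, adjusted p = 0.00759). Adamts12 had 12.3, 13.4, 13.3 and 12.5 CPM, the tightest of the 4 groups (log2 change 1.92, SE 0.29, adjusted p = 0.00601). Adamts9 had 120.4, 62.0, 66.3 and 53.6 CPM (log2 change 1.47, SE 0.27, adjusted p = 0.0108), and Adam12 had 14.5, 13.9, 10.9 and 7.36 CPM (log2 change 1.95, SE 0.37, adjusted p = 0.0133), both above every control rat. Timp2 had 171, 212, 184 and 248 CPM (log2 change 1.52, SE 0.33, adjusted p = 0.0204), also above every control rat. Cell type markers moved in this comparison too. Mesangial and smooth muscle markers were higher in 4 of 6 (4 with median-ratio scaling), with a median of 1.47 and sums of 1033 to 1499 CPM against 263 to 727 CPM, and distal nephron markers were lower in 3 of 7 with either scaling, with sums of 555 to 667 CPM against 903 to 1594 CPM. Col1a1 and Myom2 were higher with either scaling, 1 of 7 endothelial and 1 of 10 macrophage markers were higher (0 of each with median-ratio scaling), and 1 of 4 lymphocyte markers was lower (2 with median-ratio scaling). Podocyte markers had a median of 1.12, with 0 of 9 called and 4 at an unadjusted p under 0.05. Their part in the members' changes was not tested.

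The matrix enzymes Mmp2, Mmp14 and Mmp19 and the protease Adamts1 were likewise above every control rat with pioglitazone. Mmp2 had 47.8, 48.3, 34.5 and 44.4 CPM, Mmp14 48.7, 51.7, 41.6 and 38.2 CPM and Mmp19 8.62, 8.83, 6.06 and 6.50 CPM. Their log2 changes against control were 1.01 (adjusted p = 0.0225), 1.05 (adjusted p = 0.0369) and 0.99 (adjusted p = 0.0424). Adamts1 had 375, 402, 272 and 298 CPM and a log2 change of 0.85 (adjusted p = 0.0254). In 11 members every pioglitazone rat was above every control rat and in 0 below, where 14.1% of all genes separated. The count depended on single rats. It was 2 without control replicate 2, 3 without control replicate 3 and 15 without control replicate 1, where 0.363%, 0.492% and 12.6% of all genes passed. It was 3, 4 and 6 without pioglitazone replicates 2, 4 and 1, where 0.431%, 1.3% and 3.62% of all genes passed, and the calls over all genes thus moved the same way. Adamts12 and Adamts14 passed in every one of these fits, Adamts9 was at 1.44 and lost without control replicate 2, and Adam12 was lost without control replicate 2 (1.98), control replicate 3 (1.84) or pioglitazone replicate 2 (1.86). Timp2, Mmp2, Mmp14, Mmp19 and Adamts1 were each lost without control replicate 2 or 3 and without pioglitazone replicate 2 or 4, with changes in those fits from 0.75 for Adamts1 to 1.5 for Timp2. The calls of Adamts1, Mmp14 and Mmp19 were also lost without pioglitazone replicate 1, and that of Mmp14 without pioglitazone replicate 3.

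In rats given PAN and GQ-16, 0 of 38 members passed against control, where 0.151% of all genes changed. The limma fit gave 15 members an unadjusted p under 0.05, 14 of them higher, where 23.9% of all genes had one, and voom with median-ratio scaling gave 0 calls. With median-ratio scaling 3 members were higher, Adamts14, Adamts12 and Timp2, where 0.741% of all genes changed. Of the cell type markers, Col1a1 was higher with either scaling and Myom2 with median-ratio scaling. Podocyte markers had a median of 1.56, with 0 of 9 called and 6 at an unadjusted p under 0.05, and mesangial and smooth muscle markers a median of 0.98, with 0 of 6 called and 5 at an unadjusted p under 0.05. Their part in the members' differences was not tested. The 3 members also had the smallest p as reported. Adamts14 had 3.70, 6.48, 14.7 and 10.5 CPM, above every control rat (log2 change 1.65, SE 0.33, adjusted p = 0.0621). Adamts12 had 5.59, 9.33, 16.6 and 7.08 CPM, also above every control rat (log2 change 1.44, SE 0.29, adjusted p = 0.0621). Timp2 had 140.5, 126, 249 and 292 CPM, with replicate 2 just under control replicate 1 (log2 change 1.43, SE 0.33, adjusted p = 0.0737). In 5 members every GQ-16 rat was above every control rat, and in 1, Adamts6 (1.65, 2.81, 2.08 and 2.08 CPM), every one was below, where 6.01% of all genes separated. Without control replicate 1 the count of members called was 11, where 11.9% of all genes passed. Without GQ-16 replicate 1 it was 2, where 0.159% of all genes passed, and without GQ-16 replicate 4 it was 1, where 1.17% did. That pioglitazone passed more members against control than GQ-16 did is no test of the difference between the drugs, which is given further on.

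**Figure D4:**
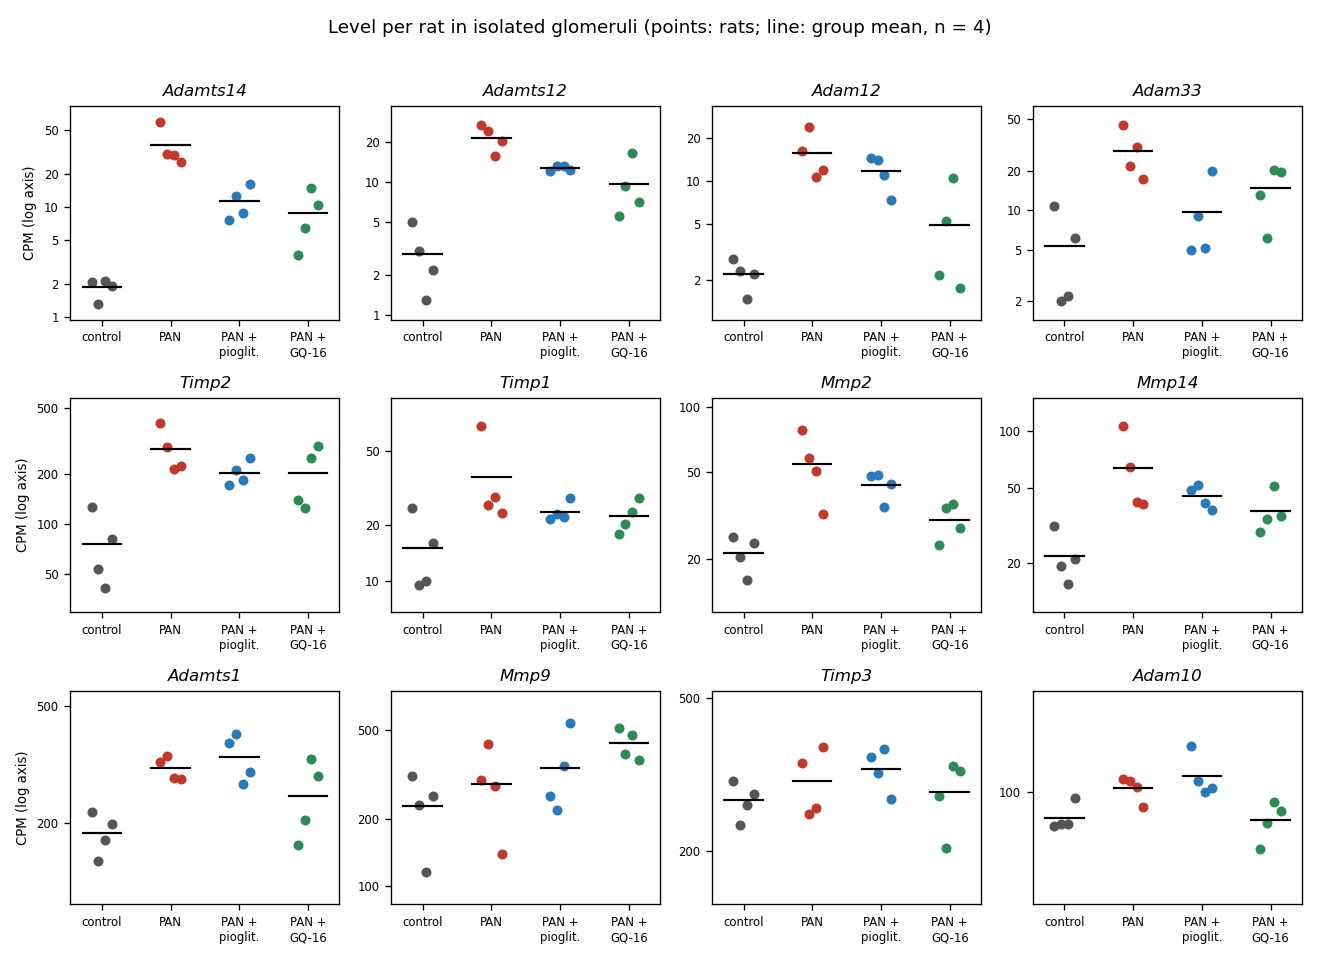
Levels of 12 members in every rat, in CPM on log axes that differ in range between panels, with a point for each rat and a line at the group mean (n = 4). PAN rats lie above all control rats in Adamts14, Adamts12, Adam12, Adam33, Timp2, Mmp2, Mmp14 and Adamts1, the drug groups lie between them or overlap either, and Mmp9, Timp3 and Adam10 overlap between control and PAN.

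Against PAN alone, no member passed for either drug. The comparisons of each drug with PAN, and of each drug with control, share the PAN or the control rats, so they are not independent of one another. For pioglitazone 0 of 38 members passed, where 0% of all genes changed, 5 had an unadjusted p under 0.05 in the limma fit, all lower, where 3.74% of all genes had one, and voom with median-ratio scaling gave 0 calls. In 2 members every pioglitazone rat was below every PAN rat, and in 0 above, where 2.76% of all genes separated. The smallest p was that of Adamts14, with 7.67, 12.5, 8.75 and 16 CPM against 59.0, 30.2, 29.9 and 25.7 CPM in PAN rats. Its groups did not overlap, and the log2 difference was -1.58 with a 95% interval of -2.28 to -0.88 before adjustment (adjusted p = 0.88). Adam33 had 4.94, 9.0, 5.16 and 20.02 CPM with pioglitazone, where replicate 4 lay within the PAN range (log2 difference -1.58, 95% interval -2.62 to -0.53, adjusted p = 0.916). Adamts12 lay below every PAN rat (log2 difference -0.69, 95% interval -1.31 to -0.08, adjusted p = 0.916). Timp2 and Mmp2 differed from PAN by -0.44 (95% interval -1.14 to 0.25) and -0.26 (95% interval -0.74 to 0.22), and both intervals hold 0.

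For GQ-16 against PAN 0 of 38 members passed, where 0.0151% of all genes changed. The limma fit gave 11 members an unadjusted p under 0.05, all lower, where 8.27% of all genes had one, and voom with median-ratio scaling gave 0 calls. In 5 members, Adamts14, Mmp28, Adam12, Adamts6 and Adamts7, every GQ-16 rat was below every PAN rat, and in 0 above, where 3.62% of all genes separated. Adamts14, the procollagen protease, had the smallest p, with a log2 difference of -1.98 and a 95% interval of -2.68 to -1.28 before adjustment (adjusted p = 0.0573). Mmp28 had 1.02, 1.39, 1.45 and 1.48 CPM with GQ-16 against 6.22, 3.32, 3.73 and 2.80 CPM in PAN rats (log2 difference -1.07, 95% interval -1.5 to -0.63, adjusted p = 0.151). Every GQ-16 rat was under 2 CPM in Mmp28, so this gene was listed only through rats of the other groups, where it was higher. Its separation from those groups is therefore not independent of the listing. Adam12 had 2.18, 5.21, 10.3 and 1.78 CPM with GQ-16, where replicate 3 stood just under the lowest PAN rat and the others further below (log2 difference -1.66, 95% interval -2.44 to -0.88, adjusted p = 0.272). Without GQ-16 replicate 3, Adam12 (-2.06) and Adamts14 (-2.26) passed. With the podocyte score as a covariate Adamts14 (-1.98) and Mmp28 (-1.07) passed. The mesangial and smooth muscle markers, 0 of 6 of which passed in the limma fit (4 at an unadjusted p under 0.05 with GQ-16 and 2 with pioglitazone), had a median log2 difference of -1.21 from PAN with GQ-16 and -0.92 with pioglitazone. Of the 10 macrophage markers 0 passed, 6 had an unadjusted p under 0.05 with GQ-16 and 0 with pioglitazone, and the medians were -0.77 and -0.49. Of the fibroblast and distal nephron markers 0 passed, and 2 of 4 and 3 of 7 had an unadjusted p under 0.05 in the limma fit with pioglitazone (medians -0.68 and -0.14). With GQ-16 0 of either had one (medians -0.16 and 0.09). The part of these markers' cells in the members' differences was not tested.

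The drugs were compared with each other directly, at doses that the labels do not give. Of 38 members 0 passed, where 0% of all genes changed, 10 had an unadjusted p under 0.05 in the limma fit, all lower with GQ-16, where 5.94% of all genes had one, and voom with median-ratio scaling gave 0 calls. In 4 members, Mmp28, Adam10, Adamtsl2 and Adamts13, every GQ-16 rat was below every pioglitazone rat, and in 0 above, where 2.14% of all genes separated. Adam12 was 4.88 CPM on average with GQ-16 and 11.7 CPM with pioglitazone, a log2 difference of -1.30 (95% interval -2.08 to -0.52, adjusted p = 0.724). The GQ-16 rats ranged from 1.78 to 10.3 CPM in Adam12 and overlapped the pioglitazone rats. Mmp28 had 3.84, 2.94, 2.19 and 2.61 CPM with pioglitazone, each above all GQ-16 rats (log2 difference -0.73, 95% interval -1.16 to -0.29, adjusted p = 0.724). Here too, Mmp28 was listed only through rats of groups other than GQ-16. Adam10 had 133, 107, 100.3 and 103 CPM with pioglitazone and 70.6, 82.9, 94.3 and 89.3 CPM with GQ-16 (log2 difference -0.39, 95% interval -0.64 to -0.13, adjusted p = 0.724). For Adamts14 the difference was -0.40 (95% interval -1.10 to 0.30) and for Timp2 -0.09 (95% interval -0.78 to 0.61), and both intervals hold 0. Over the 38 members the median difference was -0.29, where that of all genes was -0.02. No cell type marker passed between the drugs in the limma fit. Distal nephron markers had a median of 0.66 (3 of 7 at an unadjusted p under 0.05), mesangial and smooth muscle markers -0.48 and macrophage markers -0.32 (0 of 6 and 0 of 10), and their part in the members' differences was not tested. No member was thus told apart between the drugs after adjustment, and the intervals do not show that the drugs act alike.

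**Figure D5:**
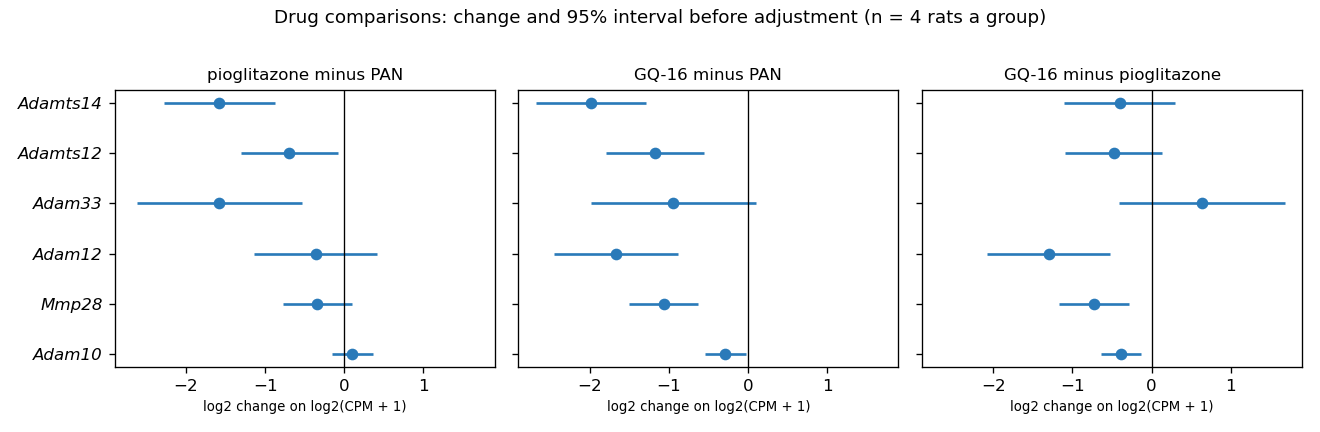
Log2 difference and 95% interval before adjustment for 6 members in the 3 comparisons among injured groups, on log2(CPM + 1), with the vertical line at 0. Adamts14 lies left of 0 against PAN for both drugs, at -1.58 and -1.98, while Adam12, Mmp28 and Adam10 lie left of 0 for GQ-16 against pioglitazone, and none of these passed after adjustment over all genes.

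Genes that act with the members were read from lists chosen with earlier results of these data known. Of 23 activators and inhibitors 19 were listed, and 8 were higher in PAN than in control (5 with median-ratio scaling) and 0 lower, where 22.3% of all genes changed (8.63% with that scaling). Among them was Tspan17, a tetraspanin partner of Adam10 (log2 change 1.83, adjusted p = 0.00568). Reck, a membrane-anchored inhibitor of several Mmp enzymes, rose by 1.61 (adjusted p = 0.023). Of 15 related metalloproteinases and their partners 7 were listed, and 2 were higher with both scalings, a share near that of all genes in the reported fit. These were Pcolce, which enhances cleavage of the carboxy-terminal propeptide of procollagen, at 85.8 ± 67.5 and 386 ± 54.9 CPM (log2 change 2.50, adjusted p = 0.00467), and Bmp1, the protease that makes that cut (log2 change 0.90, adjusted p = 0.00278). Pcolce had 175, 34.8, 32.2 and 101 CPM in the control rats. With the podocyte score as a covariate its change was 1.28, still past the threshold.

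Of 30 shed ligands and receptors 25 were listed, and 5 were higher (2 with median-ratio scaling), no larger a share than the 22.3% of all genes that changed. The largest changes among them were in Axl, a receptor shed by Adam10 and Adam17 (log2 change 1.48, adjusted p = 0.0056), and Notch3, a receptor of mural cells (log2 change 1.28, adjusted p = 0.00122). Of 27 matrix substrates 18 were listed, and 9 were higher (8 with median-ratio scaling). The largest were Col1a1, a chain of fibrillar collagen type I and so of a procollagen that needs propeptide removal, with 56.1, 7.54, 12.8 and 33.2 CPM in control and 1763, 268, 202 and 87.3 CPM in PAN rats (log2 change 3.79, adjusted p = 0.00481), and Fbn1, fibrillin-1 (log2 change 1.91, adjusted p = 0.000877). PAN replicate 1 carried the Col1a1 mean, which was 579.97 CPM with it and 186 CPM without it, where the log2 change was 2.95 (adjusted p = 0.0114). With the library number as a covariate the change of Col1a1 was 2.82 and that of Pcolce 1.98, and neither passed (adjusted p = 0.107 and 0.0982). Col4a1 and Col4a2, the broadly expressed chains of basement membrane collagen, rose by 1.08 and 1.03 (adjusted p = 0.00486 for each), while Col4a3, a chain made by podocytes, was at 1.18 and did not pass (adjusted p = 0.0775). With pioglitazone against control 2, 0, 2 and 8 genes of the 4 lists were higher, in the order given above (0, 0, 1 and 6 with median-ratio scaling), where 4.98% of all genes changed (2.85% with that scaling), and 1 shed protein, Cdh1, was lower. With GQ-16 against control 0, 0, 0 and 1 passed, the last being Col1a1, while 6, 2, 4 and 11 had an unadjusted p under 0.05 in the limma fit, where 23.9% of all genes had one. Against PAN 0 genes of any list passed for either drug, and 2, 0, 2 and 1 had an unadjusted p under 0.05 with pioglitazone (3.74% of all genes) and 4, 1, 6 and 8 with GQ-16 (8.27% of all genes).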

How the data were processed

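Poly(A) RNA of sieved glomeruli was sequenced in 16 rats, per the labels' protocols. The authors deposited log2 CPM values, per the file headers and the values. Undoing them, with 0.5 read added to each count, gave whole reads for 100% of 211552 values (tolerance 0.05). The submitters' processing notes name HISAT2, featureCounts, Subread, limma and build Rnor_6.0, without roles, and the strand setting is not given in the sources used here. The table holds Ensembl identifiers and symbols. RefSeq GRCr8 tables gave promoters and overlaps only. They name 81 genes that fit the rule, and 43 of these, among them Mmp3, Mmp7, Mmp13, Adamts2 and Adamts4, are not analysed here. Proteins are not analysed here. The values of 1 gene in the list of activators and inhibitors are not reported here.

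Groups follow the labels. Limma 3.58.1 in R 4.3.3 was fitted with a variance trend to log2(CPM + 1) of all 16 libraries, and p-values are two-sided and adjusted by Benjamini-Hochberg over 13222 genes. They weigh each group difference against the spread between rats within groups, estimated over all 16 libraries. In the reported fit they do not account for the library number. The limma code was tested on simulated data. Levels of every rat and full statistics are given for 9 named genes (Mmp2, Mmp9, Mmp14, Timp1, Timp2, Timp3, Adam10, Adam17, Adamts1), the 12 largest changes called in PAN against control, members called in drug comparisons and, where none was called, the 3 with the smallest p. Mmp12, Timp4, Adamts6 and Mmp9 with GQ-16 were added after their values were seen. Members and lists were chosen with earlier results of these data known. Alternatives were scaling (median ratio, quantile), pseudocount, voom with median-ratio scaling, pairwise fits, a mean of at least 10 CPM, covariates for library number and podocyte score, libraries numbered 15 or lower, and leaving out each rat. Chosen after seeing the data were the library number with median-ratio scaling, the TATAAA search and the ratios within libraries.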

Additional observations from a re-analysis of the deposited data

Results flagged for a closer look

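In 3 of the 152 combinations of a member and a group, the highest rat stood apart from the other 3 by Dixon's test at the 95% level, where chance alone would flag about 7.6. On the log2(CPM + 1) scale, Adamtsl4 was 7.70 in PAN replicate 1 and 6.56 to 6.75 in the other PAN rats. Adamts6 was 2.74 in PAN replicate 1 and 2.09 to 2.15 in the others. Adam10 was 6.61 in control replicate 4 and 6.36 to 6.38 in the other controls.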

How the results depend on the processing

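The count of members called in PAN against control, 19 as reported (22.3% of all genes), was 12 with median-ratio scaling (8.63% of all genes), 10 with quantile normalization (8.59%), 10 with voom on median-ratio scaling (7.92%), which changes 2 choices, 8 with the library number as a covariate (2.97%), 4 with that covariate and median-ratio scaling (2.88%), chosen after seeing the data, 11 with the podocyte score as a covariate (5.70%) and 2 in libraries numbered 15 or lower (0.597%). The last fit keeps 1 PAN rat, which is assumed to vary like the other groups. Leaving out a rat gave 9 to 21, the low values coming without control replicate 2 (9), control replicate 3 (10) and PAN replicate 1 (11), where 6.50%, 6.34% and 7.93% of all genes passed. For pioglitazone against control, 9 as reported (4.98% of all genes), the counts were 5 with median-ratio scaling (2.85%), 5 with the library number and that scaling (3.003%) and 4 with voom on that scaling (1.89%), and 2 to 15 with a rat left out (15, 2 and 3 without control replicates 1, 2 and 3, and 3 and 4 without pioglitazone replicates 2 and 4). For GQ-16 against control, 0 as reported (0.151% of all genes), they were 3 with median-ratio scaling (0.741%), 2 with quantile normalization (0.507%) and 1 with each of a pseudocount of 0.1 (0.189%), the deposited log2 values (0.189%), libraries numbered 15 or lower (1.09%) and the library number with median-ratio scaling (0.613%), and 0 to 11 with a rat left out (11 without control replicate 1, 2 and 1 without GQ-16 replicates 1 and 4). For GQ-16 against PAN they were 2 with the podocyte score (0.333% of all genes) and 0 to 2 with a rat left out (2 without GQ-16 replicate 3, 0.0681% of all genes). The other alternatives kept these counts within 1.5 times, and those for pioglitazone against PAN and GQ-16 against pioglitazone stayed at 0. Fewer libraries or genes enter some of these fits, and otherwise the cause was not tested.

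No called change of a member turned direction under any alternative. Among uncalled changes, 10 members turned in PAN against control with median-ratio scaling, 3 for pioglitazone and 6 for GQ-16 against control, and 2 and 3 for pioglitazone and GQ-16 against PAN. Of the genes given with full statistics, 4 turned in PAN against control. Mmp9 was -0.010 with quantile normalization, -0.17 with the library number, -0.63 in libraries numbered 15 or lower, -0.15 with the podocyte score and -0.38 with the library number and median-ratio scaling. With median-ratio scaling, quantile normalization and voom on median-ratio scaling, Timp3 was -0.15, -0.17 and -0.15, Adam10 -0.044, -0.027 and -0.048 and Adam17 -0.029, -0.033 and -0.038. With the library number and median-ratio scaling Adam10 was -0.0014 and Adam17 -0.038, and in libraries numbered 15 or lower Adam17 was -0.10. Of the other values of single members with all rats kept, 325 kept their direction and side of the threshold, 68 lost the call and 11 gained it. With a rat left out 258 kept, 46 lost and 8 gained it. No paired analysis was possible because the labels give no replicate numbers, those used here being names only. Counts of a few reads limit Timp4 and the members near 2 CPM.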
